A study of Rattus norvegicus with 4 samples.

Results

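Bnip3, Bnip3l, Fundc1, Ndufa4l2, Higd1a and Ak4 encode proteins of the mitochondrion that are known for their part in the response to low oxygen, and they were followed here in rat hepatic stellate cells with and without ginsenoside Rk1. These 6 genes were taken by symbol from a table of 32883 genes. They were selected on biological grouping with the difference between treated and untreated libraries already known, so their values in that comparison are a description and support nothing. No p-value is given for them, and the number called in the fit across all genes is stated once, beside the share of all genes called. Gene expression was measured by RNA sequencing of total RNA from HSC-T6, an immortalised rat hepatic stellate cell line. The 4 libraries comprised 2 of untreated HSC-T6 cells and 2 of HSC-T6 cells whose treatment is labelled GRK1, the ginsenoside RK1 of the series title, a saponin of processed ginseng. The labels name no dose, duration or vehicle. They do not say whether replicates were grown as separate cultures, and the p-values therefore reflect variation between these 4 libraries alone, possibly of technical origin. Every mean ± SD below is over n = 2 libraries.

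Mitophagy is the removal of mitochondria by autophagosomes. BNIP3, NIX (the product of Bnip3l) and FUNDC1 sit in the outer mitochondrial membrane and bind the LC3 and GABARAP proteins of the forming autophagosome, so that they mark the organelle for removal without ubiquitin. Bnip3, Ndufa4l2, Higd1a and Ak4 are textbook targets of hypoxia-inducible factor 1 (HIF-1), which binds a short core motif, ACGTG or GCGTG, while FUNDC1 is regulated mainly by phosphorylation in hypoxia. NDUFA4L2 resembles NDUFA4, a subunit of cytochrome c oxidase, HIGD1A interacts with that enzyme, and AK4 is an adenylate kinase of the mitochondrial matrix.

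Library totals ranged from 18008586 to 20430930 counts, and 3 counts in a library correspond to 0.148 to 0.167 CPM (counts scaled to a common library size by TMM-adjusted totals). Of the stellate cell and myofibroblast markers, Col1a1, a fibrillar collagen, stood at 12050 ± 615 CPM untreated and 8017 ± 68 CPM with Rk1, and Vim, an intermediate filament, at 1276 ± 4.3 and 1206 ± 42 CPM. Gfap and Acta2 were low, with 12 to 80 and 6 to 73 counts in a library, and Lrat and Reln had 0 counts in all 4 libraries. The 14 stellate markers matched summed to between 23677 and 24783 CPM untreated and between 16413 and 16446 CPM with Rk1. Of 11 tested, 7 were called lower at an edgeR adjusted p under 0.05 and 0 higher. Those 7 were Acta2, Gfap, Dcn, Col3a1, Col1a1, Sparc and Timp1, lower by 0.37 to 2.44 on the log2 scale. Over all tested genes, 10.5% were called lower and 11.5% higher. The marker calls were not recomputed in the alternative fits described at the end. Hepatocyte markers summed to at most 0.330 CPM in any library, macrophage markers to at most 1.95 and endothelial markers to at most 2.58. Cholangiocyte markers summed to 7.49 and 9.18 CPM untreated and to 2.95 and 2.74 with Rk1, most of it Sox9. Only 1 gene of that list was tested, and it was called lower (log2 fold change -1.74). A sum that is mostly 1 gene does not identify a cell type. The part of these marker changes in the results below was not tested. In bulk RNA, more transcript per cell and more cells that express a gene cannot be told apart.

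RefSeq promoter windows, from 250 bases before to 50 bases after the annotated start on assembly GRCr8, matched 4 of the 6 genes, Bnip3, Ndufa4l2, Higd1a and Ak4. The 150 bases from -200 to -51 are shown because the HIF-1 core motif is the sequence feature for which these genes are known. Capitals mark every ACGTG or GCGTG on either strand. The stretches lie at chr1:203155013-203155162 (minus strand), chr8:130400939-130401088 (minus strand), chr5:121154936-121155085 (plus strand) and chr7:65241969-65242118 (plus strand), in the order printed.
Bnip3: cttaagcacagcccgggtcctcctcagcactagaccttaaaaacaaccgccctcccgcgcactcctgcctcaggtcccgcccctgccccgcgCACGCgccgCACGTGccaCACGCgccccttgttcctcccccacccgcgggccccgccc
Higd1a: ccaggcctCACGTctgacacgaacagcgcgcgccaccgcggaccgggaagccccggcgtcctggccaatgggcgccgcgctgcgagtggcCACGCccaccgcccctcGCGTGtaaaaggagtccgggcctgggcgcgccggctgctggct
Ak4: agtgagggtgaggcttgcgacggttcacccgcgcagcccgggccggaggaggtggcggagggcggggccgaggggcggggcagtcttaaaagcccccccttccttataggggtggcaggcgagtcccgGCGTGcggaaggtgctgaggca
Ndufa4l2: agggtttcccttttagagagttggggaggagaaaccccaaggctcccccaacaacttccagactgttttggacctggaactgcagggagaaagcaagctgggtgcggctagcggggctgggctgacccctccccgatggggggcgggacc

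The Bnip3 window held 4 matches between 108 and 90 bases before the start, 2 of which are the same palindrome CACGTG read on both strands. Higd1a held 3, at 192, 110 and 93 bases before the start, and Ak4 held 1, at 72 bases before it. The Ndufa4l2 window held none, which says only that these letters are not in this window. Such a short motif is common: 41.6% of all 33469 rat windows and 61.1% of the 10012 windows of tested genes held at least 1 match, and 15.4% of the latter held 3 or more. Its frequency goes with base composition, since among windows of tested genes with at least 60% G or C the share was 70.1%. The windows of Bnip3, Higd1a and Ak4 had 71.3%, 73.0% and 70.0% G or C, and that of Ndufa4l2 57.0%. The palindrome CACGTG, present in the Bnip3 window, stood in 9.16% of windows of tested genes. Among those with at least 60% G or C, 10.7% held the palindrome and 20.6% held 3 or more matches.

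Transcripts of 5 of the 6 genes were more abundant with Rk1, and Fundc1 was the exception. All 6 passed the filter on low counts, in which 12316 genes were tested. In edgeR's quasi-likelihood fit 5 were called higher at a Benjamini-Hochberg adjusted p under 0.05 and 0 lower, where 11.5% of all tested genes were called higher, 10.5% lower and 22.0% in either direction. Since the genes were grouped with this comparison known, nothing is read from that count or from the arrangement of their libraries. The median log2 fold change of the 6 was 1.28, beside 0.0011 over all genes tested. In 5 genes both Rk1 libraries stood above both untreated libraries, an arrangement seen in 32.1% of tested genes, and in Fundc1 both stood below, as in 30.9%.

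**Figure D1:**
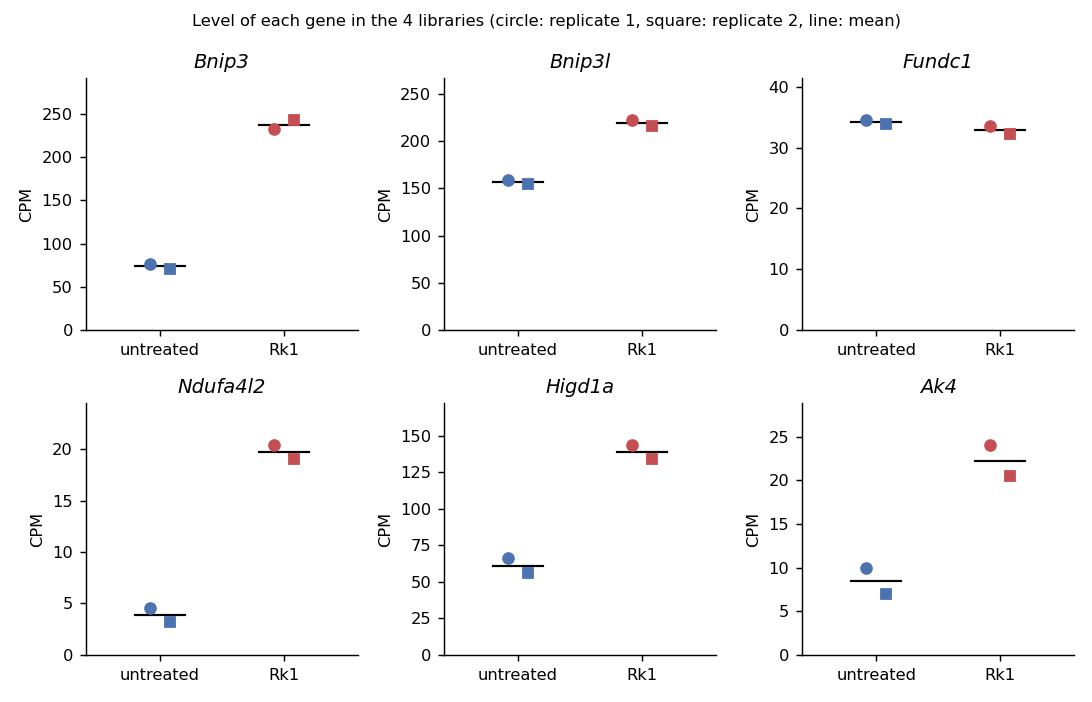
CPM (vertical axis from 0) of Bnip3, Bnip3l, Fundc1, Ndufa4l2, Higd1a and Ak4 in the 2 untreated (blue) and 2 Rk1 (red) libraries, with circles for replicate 1, squares for replicate 2 and a line at the mean. The groups are separated in all 6 panels, widely for Ndufa4l2 and Bnip3 and narrowly, with Rk1 the lower, for Fundc1.

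Among the receptors, Bnip3 (ENSRNOG00000017243, Rnor_6.0 chromosome 1, 211248098 to 211265282, minus strand) was at 76.6 and 71.1 CPM in the untreated libraries and at 233 and 243 CPM in the Rk1 libraries. Its level was thus 3.22-fold higher with Rk1 (log2 fold change 1.69 ± 0.05 SE), and it ranked 48th of the 12316 tested genes by increase. Bnip3l (ENSRNOG00000009820, chromosome 15, 43643897 to 43667029, minus strand) was at 159 and 154 CPM untreated and at 222 and 216 CPM with Rk1. Its increase, 1.40-fold (0.48 ± 0.04), was the smallest of the 5, although the 2 libraries of each group lay close together. Fundc1 (ENSRNOG00000003470, chromosome X, 5549419 to 5566127, plus strand) was at 34.5 and 33.9 CPM untreated and at 33.5 and 32.2 CPM with Rk1. The groups were separated by less than 1 CPM between their nearest libraries, the log2 fold change (-0.06 ± 0.06) was no larger than its SE.

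Among the transcripts of these 3 receptor genes, the share of Bnip3 was larger with Rk1. Such shares restate the levels above and describe RNA, not protein. Other receptor genes are outside the sum, such as Phb2 (110 RPKM untreated, 104 with Rk1) and Fkbp8 (67.8 and 68.6). On the scale of RPKM (CPM per kilobase of summed exon length), which allows levels of different genes to be compared, the 3 receptors together summed to 114 and 109 untreated and to 230 and 234 with Rk1. Bnip3 made up 40.9 ± 0.81% of that sum in untreated cells and 63.4 ± 1.2% with Rk1. Bnip3l went from 43.9 ± 0.51% to 29.6 ± 0.90%, a smaller share in spite of its higher level, and Fundc1 from 15.2 ± 0.29% to 7.04 ± 0.28%. In untreated cells the RPKM of Bnip3l was 1.07 times that of Bnip3, and with Rk1 it was 0.466 times that of Bnip3.

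**Figure D2:**
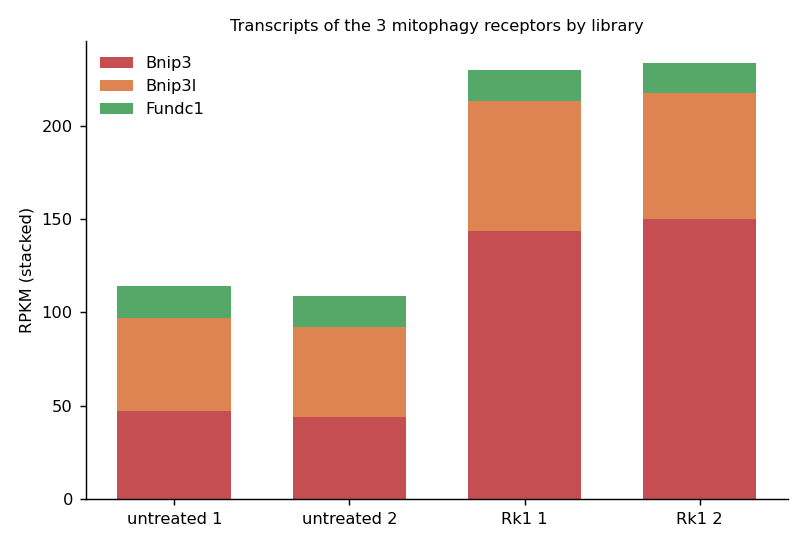
Stacked RPKM (vertical axis from 0) of Bnip3 (red), Bnip3l (orange) and Fundc1 (green) in each of the 4 libraries. The bars reach 114 and 109 untreated and 230 and 234 with Rk1, and most of the added height is Bnip3.

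Ndufa4l2, Higd1a and Ak4, the genes for respiratory chain and nucleotide proteins, showed larger increases than Bnip3l. Ndufa4l2 (ENSRNOG00000031851, chromosome 7, 70821957 to 70824085, plus strand), whose product is reported to lower respiratory activity in hypoxia, was at 4.53 and 3.19 CPM untreated, from 92 and 58 counts, and at 20.4 and 19.0 CPM with Rk1, from 366 and 347 counts. This was the largest change of the 6 genes, 5.07-fold (2.34 ± 0.16), and ranked 25th among tested genes. Higd1a (ENSRNOG00000019428, chromosome 8, 130482493 to 130491998, minus strand) was at 66.4 and 55.8 CPM untreated and at 143 and 134 CPM with Rk1. The difference of 2.26-fold (1.18 ± 0.08) was larger than the gap between the libraries of either group. Ak4 (ENSRNOG00000045738, chromosome 5, 120250616 to 120305897, plus strand), which transfers phosphate between nucleotides in the matrix, had 203 and 126 counts untreated and 431 and 373 counts with Rk1, or 8.46 ± 2.2 CPM and 22.2 ± 2.5 CPM. Its 2.62-fold difference (1.39 ± 0.17) had the widest standard error of the 6, and the 2 libraries of each group lay further apart on the log2 scale than for the other 5 genes.

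Untreated replicate 1 was above untreated replicate 2 in all 6 genes, by between 0.03 (Fundc1) and 0.53 (Ak4) on the log2 scale. In the Rk1 group replicate 1 was the higher in 5 genes and Bnip3 was the exception, with gaps of at most 0.23. The log2 fold change of Ndufa4l2 was therefore 2.63 without untreated replicate 1 and 2.11 without untreated replicate 2, and that of Ak4 was 1.68 and 1.14. No other annotated gene overlapped any of the 6 on Rnor_6.0, and each symbol stood on 1 identifier.

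Per kilobase, the order of the 6 genes changed with Rk1. In untreated cells the RPKM were 49.0 ± 1.0 for Bnip3l, 45.6 ± 2.4 for Bnip3, 40.1 ± 4.9 for Higd1a, 17.0 ± 0.22 for Fundc1, 8.26 ± 2.1 for Ak4 and 4.09 ± 1.0 for Ndufa4l2. The first 3 lay close together, with the upper Higd1a library at 43.6 and the lower Bnip3 library at 44.0. With Rk1 the order was Bnip3 (147 ± 4.4), Higd1a (90.9 ± 4.5), Bnip3l (68.5 ± 1.3), Ak4 (21.7 ± 2.4), Ndufa4l2 (20.9 ± 1.0) and Fundc1 (16.3 ± 0.46). Ak4 and Ndufa4l2 overlapped there, and Fundc1, above both of them in untreated cells, was the lowest.

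Related genes outside the group are given as a description. The group was chosen with this comparison known, and all lists with earlier results of these data known. Of 14 identifiers on a list of paralogues and like-named genes, 8 were tested, of which 1 was higher and 0 lower, with a median log2 fold change of 0.06 and a range of -0.16 to 0.26. Ndufa4, the cytochrome c oxidase subunit that Ndufa4l2 resembles, was at 157 ± 0.90 RPKM untreated and 140 ± 7.5 RPKM with Rk1 (log2 fold change -0.16 ± 0.05, adjusted p = 0.062). Ndufa4l2 thus made up 2.54 ± 0.60% of the RPKM of this pair untreated and 13.0 ± 1.1% with Rk1, and Ndufa4 stayed 6.72 times as abundant. Higd2a, an assembly factor of respiratory chain complexes, was the gene that rose (0.26 ± 0.07, edgeR adjusted p = 0.038), from 50.5 ± 0.15 to 60.4 ± 4.7 RPKM, but the call was lost on leaving out Rk1 replicate 1 or either untreated library. The share of Higd1a in its sum with Higd2a went from 44.2 ± 3.1% to 60.1 ± 0.68%. Without Rk1 replicate 2, Ndufa4 was called lower.

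None of the adenylate kinases tested from this list passed the test. Ak3, also of the matrix, was at 18.3 ± 0.26 RPKM untreated and 19.0 ± 0.33 RPKM with Rk1. Ak4 was below Ak3 in both untreated libraries and above it in both Rk1 libraries, and its share of their sum went from 30.9 ± 5.2% to 53.2 ± 3.2%. Both identifiers of Ak6 had log2 fold changes of 0.07, and Ak5, Ak7, Ak8 and Ak9 were too low to be tested, with at most 7 counts in a library. Fundc2, the relative of Fundc1, was at 12.3 ± 1.45 and 12.1 ± 0.52 RPKM, and was not called. Bnip1 and Bnip2, which share a name with Bnip3 but belong to other families, had log2 fold changes of -0.14 ± 0.08 and 0.11 ± 0.05 and were not called. Higd1b and Higd1c had 0 counts in all 4 libraries, which allows at most 0.167 CPM in the shallowest.

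**Figure D3:**
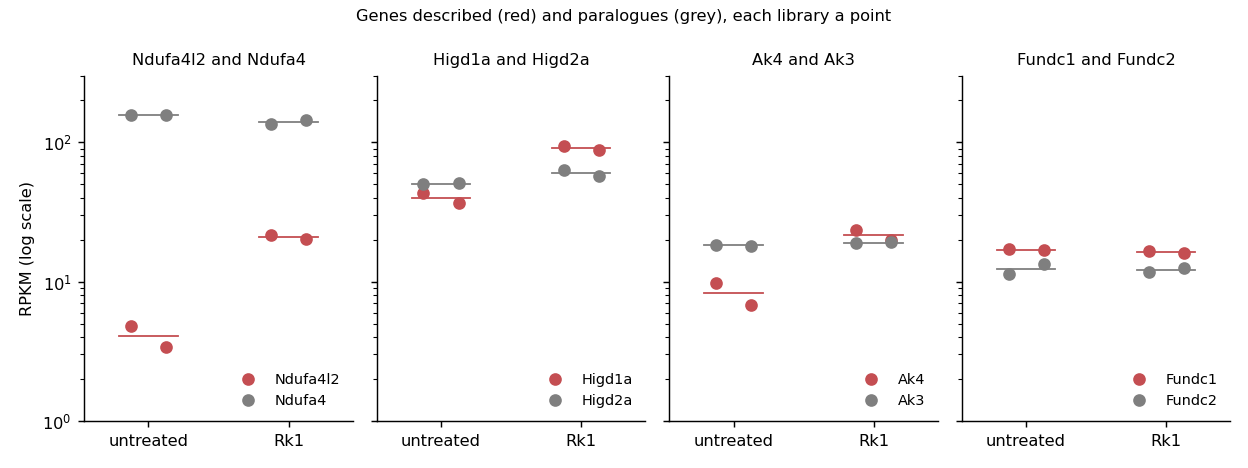
RPKM (logarithmic vertical axis) of each gene of the group (red) and a paralogue (grey), each library a point and each line the mean of 2. Ndufa4 stays above Ndufa4l2, Higd1a and Ak4 move from below Higd2a and Ak3 to above them, and Fundc1 and Fundc2 keep their levels.

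Genes of other mitophagy routes were mostly not called, like most of all genes tested. For this and the other lists, the shares over all tested genes are 11.5% called higher and 10.5% lower. Of 18 tested genes for other receptors and for ubiquitin-dependent mitophagy, 3 rose and 0 fell, with a median log2 fold change of 0.07. In 9 both Rk1 libraries stood above both untreated libraries and in 1 below, beside 32.1% and 30.9% of all genes tested. Sqstm1, which encodes the cargo adaptor p62, went from 421 and 403 CPM to 584 and 601 CPM (0.52 ± 0.04, edgeR adjusted p = 3.0e-04), close to the log2 fold change of Bnip3l. Pink1, the kinase that starts the Parkin pathway, rose by 0.37 ± 0.07 (edgeR adjusted p = 0.012) and Optn, a ubiquitin-binding adaptor, by 0.25 ± 0.06 (edgeR adjusted p = 0.020). Only Sqstm1 was called without Rk1 replicate 1, and Optn was not called without untreated replicate 2. The receptor genes Bcl2l13 (0.04 ± 0.05), Fkbp8 (0.02 ± 0.04), Phb2 (-0.07 ± 0.05) and Nlrx1 (0.08 ± 0.09) were picked with their values in view, and none passed the test.

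Some genes for the partners that the receptors bind were called higher. Of 12 genes for ATG8 proteins and their lipidation, 3 rose and 0 fell, with a median of 0.16, and all 3 encode ATG8 proteins. In 8 of the 12 both Rk1 libraries stood above both untreated libraries and in 0 below, beside 32.1% and 30.9% of all genes tested. Map1lc3b, one of the LC3 genes, was at 92.6 and 93.7 CPM untreated and at 134 and 114 CPM with Rk1 (0.41 ± 0.08, edgeR adjusted p = 0.0084). Gabarapl2 (0.44 ± 0.05, edgeR adjusted p = 0.0011) and Gabarap (0.33 ± 0.04, edgeR adjusted p = 0.0018) rose as well. These 3 calls held whichever library was left out. The ATG8 genes Gabarapl1 (0.21 ± 0.06, edgeR adjusted p = 0.052) and Map1lc3a (0.17 ± 0.06, edgeR adjusted p = 0.081) were picked with their values in view. Neither was called in the main fit. Of 13 genes whose products act on the receptor proteins, among them kinases and ubiquitin ligases, 1 rose and 0 fell, with a median of 0.04. This was Ulk1, the autophagy kinase that phosphorylates FUNDC1 (0.25 ± 0.06, edgeR adjusted p = 0.030), and this call, too, was lost on leaving out Rk1 replicate 1 or either untreated library.

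Mitochondrial fission and fusion genes were mostly not called, again like most of all genes tested. Of 11 tested, 0 rose and 1 fell, with a median of 0.05. Fis1, a fission receptor of the outer membrane, fell by 0.18 ± 0.05 (edgeR adjusted p = 0.034), but the call was lost in each of the 4 fits without 1 library. Mff, another fission receptor, was picked with its values in view. It had 50 and 52 counts untreated and 275 and 67 counts with Rk1, so that its log2 fold change of 1.83 ± 0.58 (edgeR adjusted p = 0.061) came mostly from Rk1 replicate 1. Mff was called higher without Rk1 replicate 2, and Mfn2, a fusion gene, without Rk1 replicate 1.

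Transcripts of the mitochondrial content list, all for mitochondrial proteins, leaned towards lower levels. Mitochondrial mass was not measured, and these transcript levels do not give it. Of 29 tested, 1 rose and 7 fell, with a median of -0.05, and their summed level was 6016 and 6008 CPM untreated and 5747 and 5701 CPM with Rk1. Mdh2, a malate dehydrogenase of the citric acid cycle, fell by 0.30 ± 0.04 (edgeR adjusted p = 0.0036) and Slc25a5, an ADP/ATP carrier, by 0.28 ± 0.04 (edgeR adjusted p = 0.0038). The chaperonin genes Hspd1 (-0.18 ± 0.04) and Hspe1 (-0.23 ± 0.05) fell too, and the aminotransferase gene Got2 rose by 0.25 ± 0.05. Both chaperonin calls were lost on leaving out untreated replicate 2 or Rk1 replicate 1. The calls of Mdh2 and Slc25a5 held whichever library was left out. Fewer fell when 1 library was left out, 2 without untreated replicate 2, 3 without untreated replicate 1 and 4 in the absence of either Rk1 library, and Got2 was not called without untreated replicate 2. Tomm20, the import receptor of the outer membrane, and Cs, citrate synthase, had log2 fold changes of -0.03 ± 0.04 and 0.05 ± 0.05 and were not called. Both were picked with their values in view because their proteins, not their transcripts, are common measures of mitochondrial mass.

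Genes of complex IV, the enzyme to which NDUFA4 belongs, differed by small amounts, more often upward. Of 27 subunit and assembly genes tested, 5 rose and 0 fell, with a median of 0.11. In 17 both Rk1 libraries stood above both untreated libraries and in 4 below, beside 32.1% and 30.9% of all genes tested. Coa5 (0.26 ± 0.05), Cox17 (0.24 ± 0.05), Cox14 (0.33 ± 0.07) and Pet100 (0.36 ± 0.09), all assembly factors, had the smallest adjusted p-values (edgeR, 0.010 to 0.028). Leaving out 1 library lowered the number that rose to 1 without untreated replicate 2, 2 without untreated replicate 1 and 3 when Rk1 replicate 1 was absent, and 1 gene fell without untreated replicate 1. Cox4i2, the subunit form known for its induction by hypoxia, had 0 counts in every library, which allows at most 0.167 CPM in the shallowest, so any difference was not detectable at this depth.

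Among other hypoxia-inducible genes with mitochondrial roles, some rose and the rest did not pass the test. Of 8 tested on a list of such genes, 3 rose and 0 fell, with a median of 0.23. Fam162a, whose product is a hypoxia-induced mitochondrial protein, was at 58.3 and 59.7 CPM untreated and at 141 and 133 CPM with Rk1 (1.21 ± 0.05, edgeR adjusted p = 2.2e-05), a difference close to that of Higd1a. Pdk1, which inhibits pyruvate dehydrogenase, was at 32.7 and 33.3 CPM and at 65.5 and 61.2 CPM (0.94 ± 0.06, edgeR adjusted p = 8.7e-05). Mxi1, a MYC antagonist, rose by 0.58 ± 0.04. These 3 calls held whichever library was left out, and Lonp1, the matrix protease that degrades a subunit of complex IV in hypoxia, was picked with its value in view and was not called (0.09 ± 0.05). Of 19 hypoxia-inducible genes outside the mitochondrion, 12 rose and 0 fell, with a median of 0.51. Over all tested genes, 11.5% were called higher. Both lists were chosen with earlier results of these data known, so their counts and adjusted p-values are a description and support nothing. Bhlhe40, Ero1a, Ca9 and Slc2a1 had the smallest adjusted p-values (edgeR, 1.6e-05 to 2.4e-04), with log2 fold changes of 1.73 ± 0.06, 0.74 ± 0.04, 0.79 ± 0.05 and 1.14 ± 0.09. The remaining 7 were not called, and the lowest log2 fold change of the list was -0.54. Vegfa, picked with its values in view, was among the genes not called (0.18 ± 0.09).

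Of 6 tested transcription factors reported to act on these genes, 2 rose and 0 fell, with a median of 0.02. Hif1a, the oxygen-regulated subunit of HIF-1, was at 293 and 295 CPM untreated and at 404 and 401 CPM with Rk1 (0.45 ± 0.04, edgeR adjusted p = 3.9e-04), a call that held whichever library was left out. Because that protein is controlled mainly by its degradation, its transcript level does not measure its activity. Foxo3, a forkhead factor reported to induce Bnip3, rose by 0.28 ± 0.06 (edgeR adjusted p = 0.016) but was not called without untreated replicate 2 or Rk1 replicate 1. Epas1, which encodes HIF-2 alpha, Hif3a and Ppargc1a were too low to be tested.

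**Figure D4:**
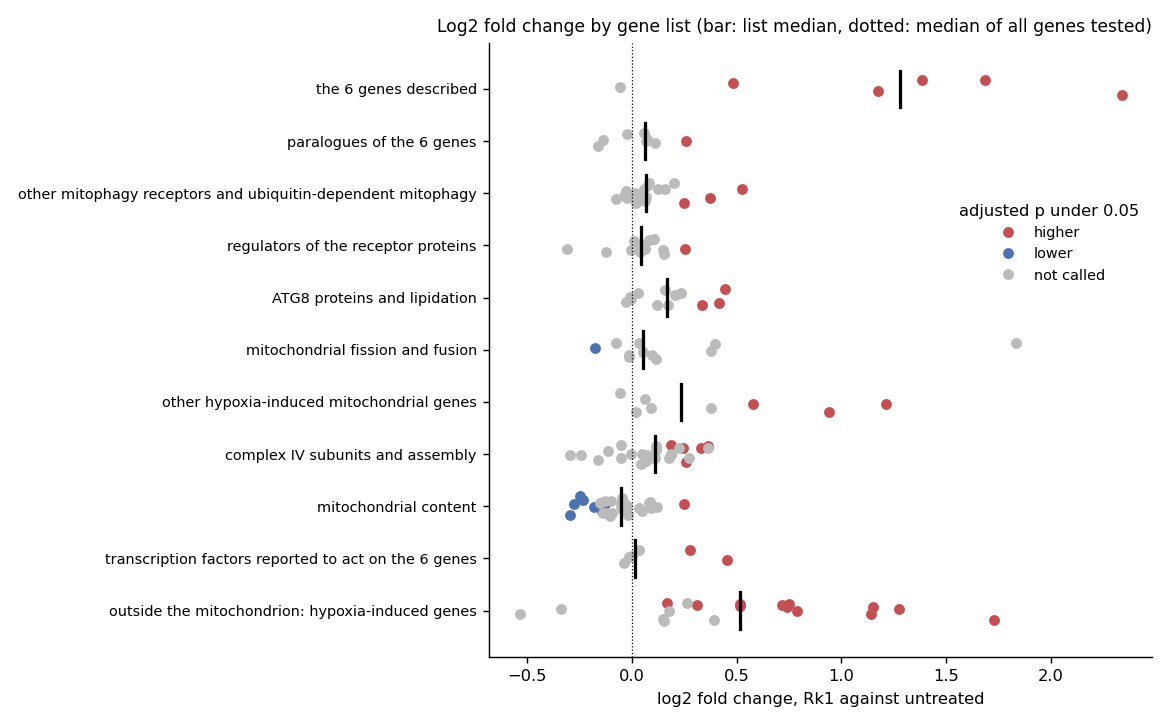
Log2 fold change of Rk1 against untreated (horizontal axis) for each tested gene of each list other than the cell type markers, in red where called higher, blue where called lower and grey where not called at an adjusted p under 0.05, with a bar at the list median and a dotted line at the median of all genes. The 6 genes described have a median of 1.28, the hypoxia-inducible genes outside the mitochondrion 0.51, and the remaining lists plotted lie between -0.05 and 0.23.

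The genes whose pattern over the 4 libraries was most like each of the 6 were found by the root mean square difference of centred log2 CPM among 9396 named genes. This likeness is set mainly by the size of the same difference between groups and is a description over 4 libraries. Bnip3 was nearest to Gpnmb, a lysosomal glycoprotein gene (0.06 log2 units apart), then Bhlhe40 and Tm7sf2, a sterol reductase gene. Higd1a was nearest to Slc2a1, the glucose transporter GLUT1 (0.05), then Slc16a3, a lactate exporter, and Msmo1, a sterol synthesis enzyme. For Bnip3l the nearest were Entpd5, Abca2 and Gsr, all within 0.0134, and for Fundc1 they were Cnot9, Paxip1 and Haus5, none of which was called. Ak4 was nearest to Higd1a (0.16), then Mt2A, a metallothionein, and Gpnmb. Ndufa4l2 had no close neighbour: the nearest, the metallothionein Mt1, was 0.30 log2 units away, and Bhlhe40 and Bnip3 were at 0.36 and 0.37.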

How the data were processed

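The authors deposited raw counts per Ensembl gene with symbols, summed exon lengths and Rnor_6.0 positions, per the file headers, and these whole-number counts carry no scaling. HISAT2 and HTSeq are named, per the submitters' processing notes; tool versions and the strand setting are not given in the sources used. The deposited exon length, the other value used, served only for RPKM.

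Genes were filtered with filterByExpr (minimum count 10, minimum total 15; 12316 of 32883 kept) and scaled by TMM. The test was the quasi-likelihood F-test of edgeR 4.0.16 (R 4.3.3), two-sided, on a 2-group design that leaves 2 residual degrees of freedom, Benjamini-Hochberg adjusted over all tested genes, threshold 0.05. The SE is the log2 fold change divided by the root of F. Steps were tested on simulated data. Alternatives were DESeq2 1.42.0, limma-voom (limma 3.58.1), other scalings, filters and dispersions, a replicate block and each library left out. Counts of the replicates of a group differed by more than counting error. Their chi-square statistic, pooled over genes and divided by its degrees of freedom, was 4.57 (untreated) and 4.67 (Rk1). That value does not show how the replicates were prepared.

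The 6 genes and all lists were chosen with earlier results of these data known. Named were the 6 genes, the paralogue list, up to 4 called genes per list and direction by adjusted p, and the 3 nearest genes of each by pattern over the libraries, with a mean of at least 5 CPM. Listed symbols that match no row of the table were not analysed here, and some genes of the lists are not reported here. Promoter windows come from RefSeq on GRCr8, matched by symbol. The 3-count limit covers counting error only.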

Additional observations from a re-analysis of the deposited data

How the results depend on the processing

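No log2 fold change of the 6 genes changed sign under the 12 alternatives, which is no sign of stability, since the genes were chosen on this comparison. Only those of Ndufa4l2 and Ak4 moved by more than the spread between replicates, both without untreated replicate 1. Of 288 counts recomputed for the genome, the lists other than the cell type markers and the 6 genes, 247 stayed within 1.5 times and 41 did not. The cause was not tested. The 247 include counts of 0 that stayed 0 and the calls of the 6 genes, so they do not measure stability. With DESeq2, 838 genes were higher and 809 lower, complex IV genes that rose numbered 1, transcription factors that rose 1, and the called genes among paralogues, receptor regulators and fission and fusion each 0. Robust dispersions gave 1 paralogue lower, as did a filter of 5 CPM, which also gave 5 ATG8 genes higher. With the replicate block, 1 paralogue was lower, 6 ATG8 genes were higher and 1 fission and fusion gene was higher. Same-numbered libraries deviated together only weakly (correlation 0.05 across tested genes). That value cannot show whether the numbers pair them, and the labels do not say. With the replicate block 1676 genes were higher and 1538 lower, against 1422 and 1289 in the main fit. When each library was left out, called genes ranged from 824 to 1110 higher and from 859 to 936 lower. Over the same settings the number higher ranged from 0 to 1 for paralogues, receptor regulators, fission and fusion and mitochondrial content, from 1 to 3 for other mitophagy genes, from 1 to 4 for complex IV and from 1 to 2 for transcription factors. The number lower ranged from 0 to 1 for paralogues, complex IV and hypoxia-inducible genes outside the mitochondrion and from 2 to 4 for mitochondrial content, and was 0 for fission and fusion. Leaving out a library assumes that the lone library of its group varies like the other group. With 2 libraries a group, no outlier check within a group was possible.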
